A study of Mus musculus with 24 samples.

Results

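The data described here are 6 ATAC-seq libraries of 1 mouse embryonic stem cell line, the Firre knockout control, out of 23 libraries of 4 lines that were analysed. The 6 libraries were chosen by their labels as all libraries of that line. They were compared as 3 late libraries, taken 90, 120 and 150 min after doxycycline, against 3 early libraries, taken at 0, 30 and 60 min. All 6 carry the genotype label Firre KO and the treatment label doxycycline, and unlike the rescue line they are not labelled as carrying the Firre transgene. In cells without Firre, the comparison covers changes in chromatin accessibility between these periods of drug and handling. The 30 and 60 min libraries already had the drug, so it does not set treated against untreated cells. The other lines used for comparison are the control with the genotype label WT (wild type), also without a labelled transgene, and the Firre KO line with the inducible Firre transgene (KO Firre line). Both were treated with doxycycline and sampled at the same 6 times. The remaining line is wild type with the inducible Firre transgene (WT Firre line) and has 5 analysed libraries. It enters some library measures, the scaling of counts and the fit of all 23 libraries. Each genotype with or without the transgene is 1 line, so line and genotype cannot be told apart. Per the labels' protocols, cells grew on gelatin with serum, LIF, the MEK inhibitor PD0325901 and the GSK3 inhibitor CHIR99021, and doxycycline at 1 ng/µL was given the day after seeding, an hour after fresh medium. Each library came from 25000 cells. Each line and time has 1 library and no label describes separate cultures or clones. Every p-value therefore measures the spread between libraries of different times within a line, pooled over lines where a test holds several.

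Firre is a long noncoding RNA transcribed from the X chromosome. In the rescue design its transgene is switched on with doxycycline, a tetracycline antibiotic. Doxycycline itself acts on mammalian cells: as a tetracycline it can slow protein synthesis on mitochondrial ribosomes, and such stress is known to act through ATF4 on genes of amino acid and one-carbon metabolism. A change of medium with serum is known to switch on immediate early genes such as Fos and Egr1 within minutes. Here the fresh medium came before the drug, so such a response could begin before any of the 6 libraries was taken. The late against early comparison cannot show that part. ATAC-seq counts the insertions of a transposase into open DNA, so that promoters and enhancers in use appear as peaks of counts.

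No peak passed the test between late and early libraries, while the libraries differed among themselves in depth and in the share of counts in promoters, mitochondrial DNA and unplaced contigs. Of 118420 consensus peaks tested with edgeR's quasi-likelihood test, 0 (0.0%) had an adjusted p of 0.05 or less after Benjamini-Hochberg adjustment. The smallest adjusted p was 0.9997. At an unadjusted p under 0.05 there were 4689 peaks (3.96%), and DESeq2 and limma-voom also called 0. The median log2 fold change, late minus early, was -0.002 over all tested peaks and 0.06 over 16362 nuclear promoter peaks, which carry the promoter label of the deposited annotation. The change was positive at 10464 of these promoter peaks (64.0%). Their median turned to -0.01 with the nuclear promoter share as a covariate, chosen after seeing the data. That share comes from the same counts, so the fit itself takes up much of any shift common to promoters. The 95% interval of the change lay within 2-fold either way for 86.2% of all tested peaks and 95.0% of nuclear promoter peaks. It lay within 1.5-fold for 44.8% and 75.3%.

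The labels were first checked at Firre itself and at cell type markers. Of 20 peaks annotated to Firre, 19 had fewer CPM here than the WT control. These 19, picked by that difference and so given as a description, held 24, 11 and 19 counts in the early libraries and 25, 22 and 49 in the late libraries. This is 2.57 ± 0.59 CPM (counts per 1000000; SD, n = 3) early and 3.45 ± 1.20 CPM late, against 89.2 ± 7.12 CPM in the 6 libraries of the WT control. CPM here are counts divided by the library total in peaks after TMM scaling over all 23 libraries. The promoter peaks of 8 naive stem cell markers (Pou5f1, Sox2, Nanog, Klf4, Esrrb, Zfp42, Tfcp2l1 and Dppa3) had 13.8 to 16.9 CPM per kb of peak on average in the 6 libraries. Marker lists of primed cells, primitive endoderm, germ layers, trophoblast and fibroblasts averaged 6.41 to 11.9 CPM per kb. Single markers overlapped: naive Dppa3 had 5.69 to 6.10 CPM per kb, while Pdgfra of primitive endoderm had 12.6 to 15.6 and neural Sox1 10.95 to 16.2. Pou3f1, Col3a1 and Prrx1 had no promoter peak, and open promoters of silent developmental genes are common in embryonic stem cells.

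Totals of counts in peaks were higher in every late library than in every early library. The early libraries held 7504795, 5725518 and 7664147 counts at 0, 30 and 60 min. The late libraries held 8490906, 9451990 and 10204641 counts at 90, 120 and 150 min. The lowest was 30 min, and the late totals did not overlap the early ones. The log2 difference was 0.44 (mean log2 totals of 23.16 ± 0.13 against 22.72 ± 0.23, SD, n = 3 each; exact two-sided permutation p = 0.1). With 3 against 3 libraries 0.1 is the smallest p that the test allows. In the WT control the same log2 difference was 0.03 and in the KO Firre line 0.11. The difference between lines gave an exact permutation p of 0.105 against the WT control and 0.205 against the KO Firre line, or 0.345 and 0.41 after Benjamini-Hochberg adjustment over 6 such tests. The total is a number of counted reads, and it was not tested whether yield, sequencing effort or the drug moved it.

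Promoter peaks took 35.05%, 37.0% and 35.2% of the counts at 0, 30 and 60 min, and 36.8%, 36.5% and 35.6% at 90, 120 and 150 min. The early library of 30 min had the highest share, so the groups overlapped. The means were 35.7% ± 1.07 and 36.3% ± 0.61 (SD, n = 3 each), a difference of 0.579 percentage points (exact two-sided permutation p = 0.5). The WT control moved by 0.445 and the KO Firre line by 0.325 points, and neither difference between lines passed (exact permutation p = 0.865 and 0.765, both 0.945 adjusted). The WT Firre line moved by 2.12 points (2 early and 3 late libraries, exact permutation p = 0.3), and its difference from the knockout control was not tested. Leaving out 1 library moved the difference between 0.235 points (without 0 min) and 1.20 points (without 30 min). Within 1000 bp of an annotated transcription start the difference was 0.217 points (exact permutation p = 0.7). Counting error is small beside these gaps: the 95% binomial interval (Wilson) of the 0 min share ran from 35.01% to 35.08%.

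The deposited promoter label also covers 3 intervals on the mitochondrial genome, whose DNA carries no histones. They are named for mt-Ti, mt-Tr and mt-Nd6, though 2 of them span several kilobases of rRNA, tRNA and protein genes. They held 5.71%, 5.88% and 6.25% of all counts early and 4.20%, 4.41% and 5.82% late. The 90 and 120 min libraries were below all early ones, while 150 min lay among them (difference -1.14 points; exact permutation p = 0.2). Without these intervals, promoters held 31.1%, 33.0% and 30.9% of the nuclear counts early and 34.1%, 33.5% and 31.7% late. The 90 and 120 min libraries then exceeded every early library, and 150 min lay below the 30 min library. That difference was 1.42 points (33.1% ± 1.26 against 31.7% ± 1.19, SD, n = 3 each; exact permutation p = 0.2), over 1.5 times that of the share with mitochondrial counts. The mitochondrial share differed by 0.0612 points between late and early libraries in the WT control (exact permutation p of the difference between lines 0.115, adjusted 0.345). In the KO Firre line it differed by -0.976 points (exact permutation p 0.945).

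**Figure D1:**
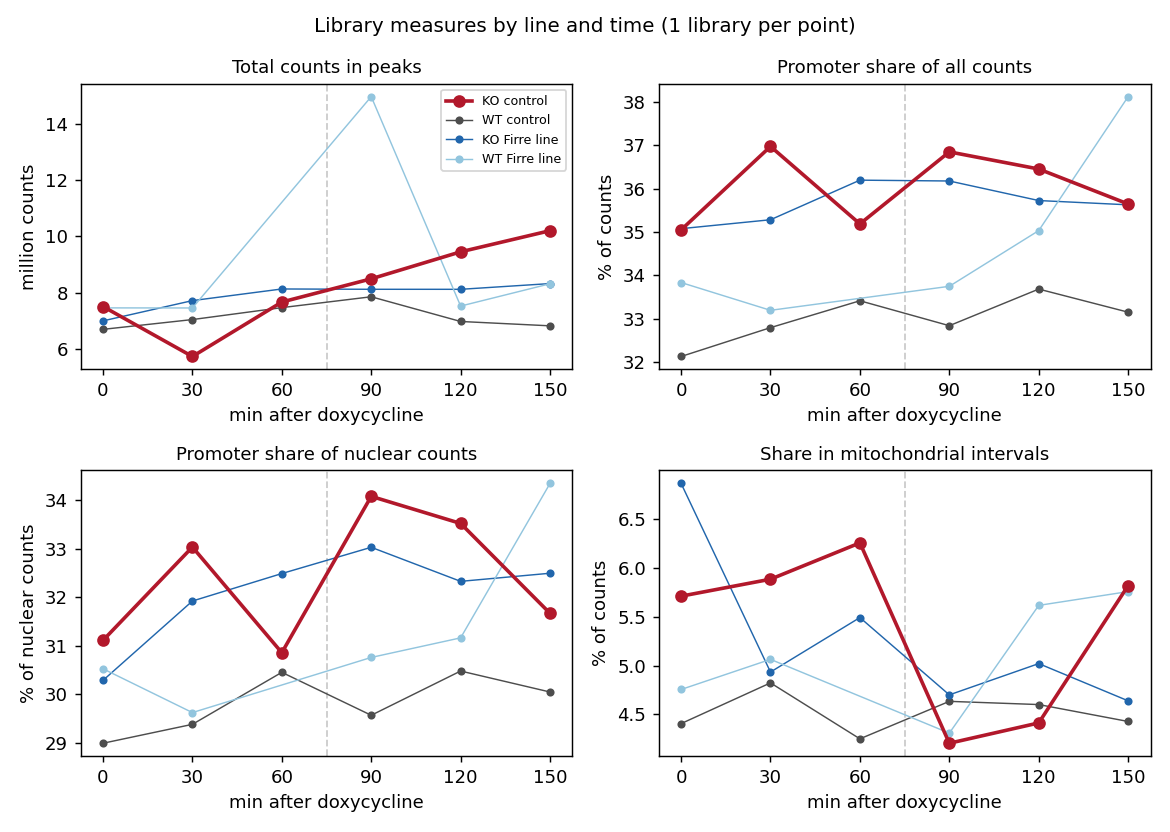
Total counts in peaks (per 1000000), promoter share of all counts (%), promoter share of nuclear counts (%) and share in the mitochondrial intervals (%) against min after doxycycline, 1 library per point, with the boundary between early and late libraries dashed. The knockout control (thick line) has its lowest total, 5725518, at 30 min and its highest, 10204641, at 150 min, and its promoter share is uneven in both periods. The wild type Firre line has no point at 60 min, where the line joins its neighbours.

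The libraries also differed in how evenly they covered the peaks. Peaks with 0 counts numbered 157, 1316 and 186 early and 877, 207 and 27 late. Poisson sampling from the summed profile of the other 5 libraries, at each library's depth, would give 344, 638 and 321 early and 163, 137 and 202 late. The 30, 90 and 120 min libraries thus had more empty peaks than this gives, and 0, 60 and 150 min had fewer. In peaks outside promoters with an expected 20 to 200 counts, the spread around that profile was 1.24, 1.21 and 1.20 times the counting variance early, and 1.81, 1.26 and 1.75 times late. Across 41788 well covered peaks, the first principal component held 44.0% of the variance, with scores of -16.5, 17.8 and -19.4 early and 36.6, 14.5 and -33.0 late. It placed 30 min with 90 and 120 min, and 150 min with 0 and 60 min. The most alike pair was 90 and 120 min (SD of the log2 ratio 0.218), and the least alike was 90 and 150 min (0.314).

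The same order of libraries showed in classes of peaks. The median log2 deviation of nuclear promoters from the mean of the 6 libraries was -0.07, 0.06 and -0.08 early and 0.11, 0.07 and -0.06 late. Peaks outside promoters stayed between 0.001 and 0.020 in all 6 libraries. The 11872 promoters with a RefSeq sequence were split by its GC content into 3 groups (cuts at 56.7% and 64.7% GC). The median late minus early was 0.03 in the lowest GC group (4089 peaks), 0.07 in the middle group (3858) and 0.10 in the highest (3925). Of the highest group 74.3% had a positive change, against 57.1% of the lowest. The 210 tested peaks on unplaced contigs went the other way between libraries, with 0.15, -0.13 and 0.12 early and -0.40, -0.05 and 0.34 late. Peaks on the X chromosome had -0.04, 0.07 and -0.06 early and 0.18, 0.08 and -0.14 late. The 90 min library was thus the highest in promoters and X peaks and the lowest on unplaced contigs. The 150 min library was the lowest in X peaks and the highest on unplaced contigs, while in promoters 60 min was the lowest. The part of GC content or library preparation in this was not tested.

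**Figure D2:**
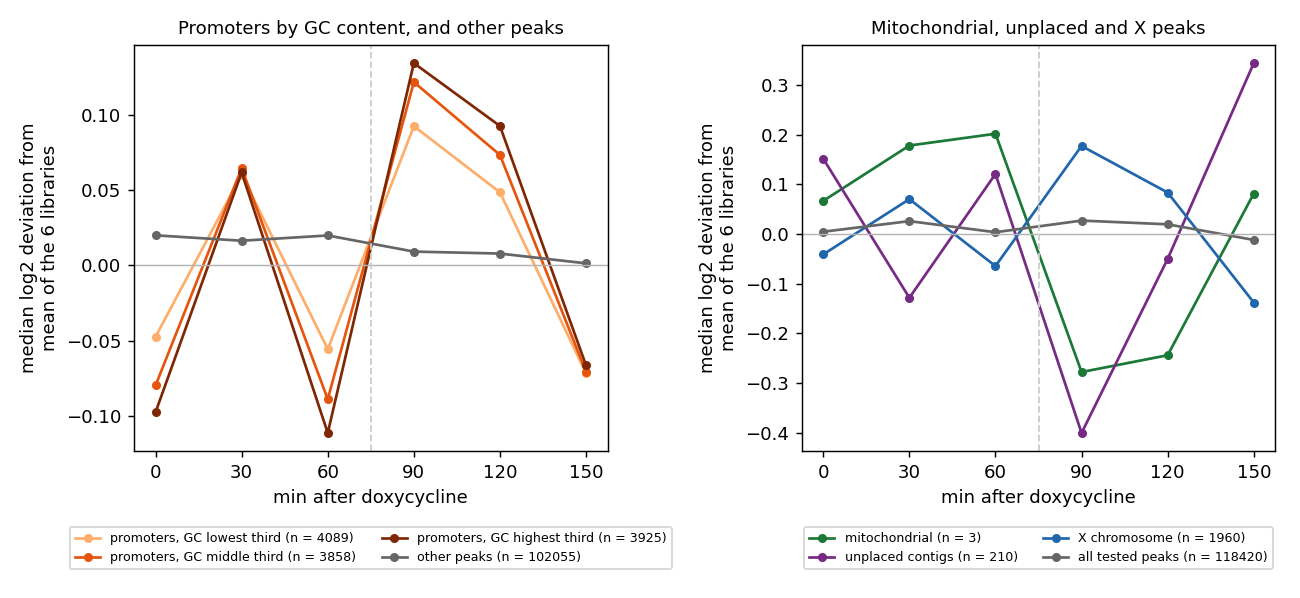
Median log2 deviation of each class of peaks from the mean of the 6 knockout control libraries, against min after doxycycline. Promoters of the highest GC group span from -0.11 at 60 min to 0.13 at 90 min, while peaks outside promoters stay near 0. Mitochondrial and unplaced peaks are low at 90 min.

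Next, genes known to answer to serum, stress and tetracyclines were read at their promoters. To show what these peaks cover, the 250 bases upstream of the annotated start are printed for 4 genes of these lists and for 2 of the promoters with the smallest p, from RefSeq (GRCm38.p6, the mm10 assembly). Capitals mark matches, on either strand, to 6 motifs that may overlap one another. These are the cyclic AMP response element TGACGTCA (in 1.55% of 32851 RefSeq promoters over the same 250 bases), the CCAAT box CCAAT (33.9%), the GC box GGGCGG (32.7%) and the TATA box TATAAA (12.4%). The other motifs are 1 pair of heat shock units GAANNTTC (6.69%) and the C/EBP-ATF response element TGATGNAA (3.45%). Each printed stretch lies whole inside the peak whose values follow. Positions are chr12:85473640-85473889 (plus strand) for Fos, chr1:134079156-134079405 (minus) for Btg2, chr6:7693210-7693459 (minus) for Asns and chr17:34959239-34959488 (minus) for Hspa1b. They are chr10:76531355-76531604 (plus) for Lss and chr5:45450230-45450479 (minus) for Qdpr.
Fos: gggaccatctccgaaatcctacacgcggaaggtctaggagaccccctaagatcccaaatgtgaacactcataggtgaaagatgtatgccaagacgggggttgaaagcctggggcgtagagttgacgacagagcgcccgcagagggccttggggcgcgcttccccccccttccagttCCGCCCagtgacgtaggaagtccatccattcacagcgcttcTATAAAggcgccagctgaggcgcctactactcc
Btg2: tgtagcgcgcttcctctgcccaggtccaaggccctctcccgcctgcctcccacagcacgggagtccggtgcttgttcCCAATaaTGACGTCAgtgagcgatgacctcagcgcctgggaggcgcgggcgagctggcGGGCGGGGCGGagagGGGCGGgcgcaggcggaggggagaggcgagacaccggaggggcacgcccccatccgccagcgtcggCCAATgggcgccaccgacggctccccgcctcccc
Asns: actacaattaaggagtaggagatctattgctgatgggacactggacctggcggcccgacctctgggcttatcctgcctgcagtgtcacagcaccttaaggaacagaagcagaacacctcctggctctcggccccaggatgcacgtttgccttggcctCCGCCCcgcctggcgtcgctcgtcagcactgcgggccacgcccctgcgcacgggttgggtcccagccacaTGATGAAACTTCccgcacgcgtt
Hspa1b: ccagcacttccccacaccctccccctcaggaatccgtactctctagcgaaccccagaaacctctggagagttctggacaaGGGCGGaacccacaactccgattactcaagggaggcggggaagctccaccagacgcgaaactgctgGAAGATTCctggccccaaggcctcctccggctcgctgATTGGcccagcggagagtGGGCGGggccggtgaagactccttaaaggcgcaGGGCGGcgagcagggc
Lss: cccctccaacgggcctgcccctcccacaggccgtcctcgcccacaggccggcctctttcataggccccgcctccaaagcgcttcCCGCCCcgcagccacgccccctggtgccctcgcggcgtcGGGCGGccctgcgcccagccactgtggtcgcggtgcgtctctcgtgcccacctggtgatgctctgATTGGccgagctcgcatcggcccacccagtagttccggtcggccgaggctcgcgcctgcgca
Qdpr: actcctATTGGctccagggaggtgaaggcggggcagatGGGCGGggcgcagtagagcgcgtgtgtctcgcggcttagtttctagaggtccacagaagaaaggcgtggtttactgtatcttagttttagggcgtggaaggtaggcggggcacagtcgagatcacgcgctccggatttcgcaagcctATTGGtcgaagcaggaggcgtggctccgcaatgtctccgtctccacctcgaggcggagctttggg
Fos has a TATA box and a GC box, Btg2 a cyclic AMP response element with CCAAT and GC boxes, and Asns a C/EBP-ATF element whose letters run into a heat shock match. Hspa1b has 1 heat shock match, a CCAAT box and 3 GC boxes. Lss and Qdpr have CCAAT and GC boxes with no TATA match in this window.

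Immediate early genes code for transcription factors and signal regulators that are switched on without new protein synthesis. Their 30 tested promoter peaks, from 27 of 30 genes, included 0 called in either direction, with a median log2 change of 0.08 against 0.06 for all nuclear promoter peaks. The change was positive at 26 of the 30 and at 64.0% of all nuclear promoter peaks, a share to set beside the positive counts of every list that follows. The late libraries lay above the early ones without overlap at 2 of the 30 peaks, where 6.29% of all nuclear promoter peaks did so, and below at 0, where 2.84% did. The 95% interval was within 1.5-fold at all 30 peaks. Fos, a subunit of the AP-1 factor, had 31.4, 28.0 and 29.9 CPM early and 34.6, 30.8 and 24.2 CPM late. The 150 min value was the lowest of the 6 and the groups overlapped (-0.02 ± 0.13, SE; edgeR adjusted p = 0.9997). Btg2, an antiproliferative gene that p53 also induces, had the smallest p among the higher peaks, with 21.4, 22.7 and 20.2 CPM early and 26.4, 27.4 and 22.7 CPM late. At Btg2 the 150 min library lay just above the highest early one, and the log2 change was 0.24 ± 0.13 (edgeR adjusted p = 0.9997). Fosl1, another AP-1 subunit, had the smallest p among the lower peaks, at 14.8, 14.2 and 17.3 CPM early and 9.60, 11.9 and 17.7 CPM late. Its highest library was 150 min, and its change was -0.23 ± 0.16 (edgeR adjusted p = 0.9997).

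Serum response factor (SRF) drives genes of the actin cytoskeleton after serum. Of the 16 peaks of this list, 0 were called, 14 had a positive change and the median was 0.18. Late exceeded early without overlap at 3 peaks (18.8%) and lay below at 1 (6.25%), against 6.29% and 2.84% of all nuclear promoter peaks. Ptgs2, the inducible cyclooxygenase, had 7.34, 8.84 and 8.25 CPM early and 11.1, 10.3 and 9.74 CPM late, without overlap (0.34 ± 0.16, SE; edgeR adjusted p = 0.9997). A peak of Tpm1, which codes for a tropomyosin, had 3.47, 3.31 and 4.45 CPM early and 2.40, 1.99 and 2.53 CPM late. This one was lower late without overlap (-0.72 ± 0.27; edgeR adjusted p = 0.9997), while the other Tpm1 peaks changed by 0.07 and 0.04. Actb, Vcl and Myh9, which code for actin, vinculin and a myosin heavy chain, had changes of 0.23, 0.25 and 0.26. At Myh9 the values were 51.8, 62.6 and 48.7 CPM early and 72.7, 71.9 and 52.3 CPM late, so that only 90 and 120 min exceeded all early libraries.

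The integrated stress response to a mitochondrial insult runs through ATF4 and its targets. Of the 22 peaks of this list, from 21 of 24 genes, 0 were called, 17 were positive and the median was 0.08. All 22 intervals lay within 1.5-fold. Asns, asparagine synthetase, had 39.9, 44.2 and 39.3 CPM early and 46.1, 42.7 and 35.6 CPM late, with 90 min the highest and 150 min the lowest (0.002 ± 0.13, SE). Phgdh, the first enzyme of serine synthesis, had the smallest p, with 14.8, 14.4 and 12.3 CPM early and 19.0, 17.2 and 14.9 CPM late. The 150 min value lay just above the highest early one (0.29 ± 0.14; edgeR adjusted p = 0.9997). Ppp1r15a, which codes for the phosphatase subunit that reverses the response, was the lower peak with the smallest p, at -0.15 ± 0.13. Its peak carries the promoter label of the neighbour Plekha4. Ddit3 (CHOP), Trib3 and Chac1 had changes of 0.14, 0.03 and 0.23.

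Chaperones and proteases of the mitochondrion had 12 tested peaks with 0 called, 9 positive and a median of 0.13. The shared promoter of Hspd1 and Hspe1, the mitochondrial chaperonin pair, had 52.6, 58.0 and 45.2 CPM early and 59.1, 63.7 and 64.8 CPM late. The late libraries were all above the early ones, by 0.27 ± 0.13 (SE; edgeR adjusted p = 0.9997). Afg3l2, a protease of the inner membrane, also did not overlap, with 29.5, 36.1 and 31.6 CPM early and 42.1, 41.0 and 39.1 CPM late (0.33 ± 0.13; edgeR adjusted p = 0.9997). These were the 2 of the 12 peaks (16.7%) where late exceeded early without overlap, against 6.29% of all nuclear promoter peaks. The lower peak with the smallest p was at Spg7, the partner of Afg3l2, at -0.11 ± 0.13. Weaker Spg7 peaks changed by 0.39, -0.16 and 0.30. Lonp1 and Clpp had changes of 0.17 and 0.07.

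Mitochondrial ribosomal proteins belong to the ribosome whose protein synthesis tetracyclines can slow. Their 82 tested peaks, from 74 of 78 genes, included 0 called and had a median of 0.08. Late exceeded early without overlap at 8 (9.76%) and lay below at 2 (2.44%), against 6.29% and 2.84% of nuclear promoters. Mrpl45 had 16.96, 18.6 and 17.6 CPM early and 24.0, 21.0 and 23.9 CPM late, without overlap (0.37 ± 0.13, SE; edgeR adjusted p = 0.9997). Mrpl36 had 11.5, 9.76 and 11.5 CPM early and 9.48, 8.06 and 8.57 CPM late, lower without overlap (-0.35 ± 0.16; edgeR adjusted p = 0.9997). Nuclear genes of oxidative phosphorylation gave 0 calls in 80 peaks and a median of 0.07, with 6 above and 1 below without overlap. In that list Ndufa5, a complex I subunit, had 14.2, 14.5 and 15.5 CPM early and 18.7, 17.8 and 19.0 CPM late. Its late values were all higher (0.32 ± 0.14; edgeR adjusted p = 0.9997), while Uqcr11 of complex III was at -0.21 ± 0.14. Cytosolic ribosomal proteins had 84 peaks, 0 called and a median of 0.05, with Rpl37 at 0.25 ± 0.13 and a weak peak of Rpl5 at -0.71 ± 0.37.

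Heat shock genes and cytosolic chaperones had 14 peaks, 0 called, 13 positive and a median of 0.13, and late and early overlapped at every peak. With 6.29% of all nuclear promoter peaks above and 2.84% below without overlap, 14 peaks would hold few such cases. Hspa1b, an inducible Hsp70 gene, had 28.7, 31.3 and 29.2 CPM early and 36.0, 36.3 and 27.1 CPM late, so 90 and 120 min were above and 150 min below all early libraries. The reads of Hspa1b and its near-identical copy Hspa1a may be shared between them. Hspb1 had the smallest p (0.21 ± 0.13, SE), and Bag3 was the 1 lower peak at -0.02 ± 0.13. Targets of Nrf2, the oxidative stress factor, had 14 peaks, 0 called, 13 positive and a median of 0.16. Srxn1, sulfiredoxin, had 14.4, 16.4 and 13.9 CPM early and 20.6, 20.2 and 15.8 CPM late, where 150 min fell back among the early values (0.33 ± 0.14; edgeR adjusted p = 0.9997). Sqstm1, the autophagy receptor p62, whose peak carries the promoter label of Mgat4b, did not overlap, at 34.2, 41.4 and 38.8 CPM early and 47.4, 48.6 and 45.0 CPM late (0.30 ± 0.13). The lower peak was at Slc7a11, the cystine transporter (-0.07 ± 0.24).

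Targets of p53 had 21 peaks, 0 called and a median of 0.05. Zmat3, a p53-induced RNA-binding protein, had the smallest p, with 25.8, 27.1 and 24.8 CPM early and 21.0, 20.9 and 19.7 CPM late. It was lower in all late libraries, by -0.34 ± 0.13 (SE; edgeR adjusted p = 0.9997). Cdkn1a (p21) had 36.3, 50.1 and 39.3 CPM early and 44.9, 51.0 and 43.4 CPM late at its main peak, with overlap. Hypoxia targets had 18 peaks, 0 called and a median of 0.08, with Egln3 at 0.29 ± 0.14 and Adm at -0.04 ± 0.13. NF-kB targets had 12 peaks, 0 called and a median of 0.04, with Relb at 0.27 ± 0.14 and Cxcl10, lower without overlap, at -0.33 ± 0.24.

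Because the medium holds LIF and inhibitors of MEK and GSK3, targets of these pathways were read too. ERK pathway targets had 21 peaks, 0 called and a median of 0.05. Spry2, a feedback inhibitor of the pathway, had 48.1, 58.2 and 48.6 CPM early and 62.7, 60.3 and 53.9 CPM late, with overlap (0.19 ± 0.13, SE). A weak peak of Spred2 was at -0.67 ± 0.34. Wnt targets had 17 peaks, 0 called and a median of 0.01, with Axin2 at 0.20 ± 0.13 and Tcf7 at -0.17 ± 0.16. LIF and STAT3 targets had 27 peaks, 0 called and a median of 0.10. Pim1, a kinase gene that STAT3 induces, had 77.3, 87.1 and 73.4 CPM early and 107, 97.6 and 79.4 CPM late, where 150 min lay among the early values (0.25 ± 0.13). A weak Stat3 peak was at -0.26 ± 0.22, while the other Stat3 peaks changed by -0.18 and 0.24.

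Genes of cell identity were read last. Naive pluripotency genes had 31 peaks, 0 called, a median of 0.03 and 0 peaks without overlap. Of all nuclear promoter peaks 6.29% lay above and 2.84% below without overlap, so a list this short would hold few. Pou5f1, which codes for Oct4, had 84.7, 101 and 81.2 CPM early and 107, 95.0 and 71.2 CPM late at its main peak. The highest was 90 min and the lowest 150 min, both late (0.02 ± 0.14, SE). Klf2 and Utf1 had the smallest p upward and downward, at 0.18 ± 0.13 and -0.17 ± 0.14. Formative and primed genes had 28 peaks, 0 called and a median of 0.0009, with Cdh2 at 0.21 ± 0.13 and Lefty1, lower without overlap, at -0.20 ± 0.14. Germ layer and trophoblast genes had 30 peaks, 0 called and a median of 0.05. The smallest p there was at a weak Hand1 peak, with 2.14, 2.76 and 0.917 CPM early and 3.41, 2.98 and 3.12 CPM late (0.76 ± 0.31; edgeR adjusted p = 0.9997), and Krt18 was at -0.20 ± 0.16. Fibroblast genes had 15 peaks, 0 called and a median of 0.04, with Thy1 at 0.21 ± 0.15 and Col1a1 at -0.16 ± 0.14. Replication-dependent histones had 25 peaks, 0 called and a median of 0.08, with H2bc14 at 0.20 ± 0.13 and H3c6 at -0.07 ± 0.14. Hox genes had 36 peaks, 0 called and a median of -0.002, with Hoxb1 at 0.35 ± 0.15 and a weak peak of Hoxb6 at -0.95 ± 0.37. Of 10 genes of the 2-cell-like state, 0 had a tested promoter peak.

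**Figure D3:**
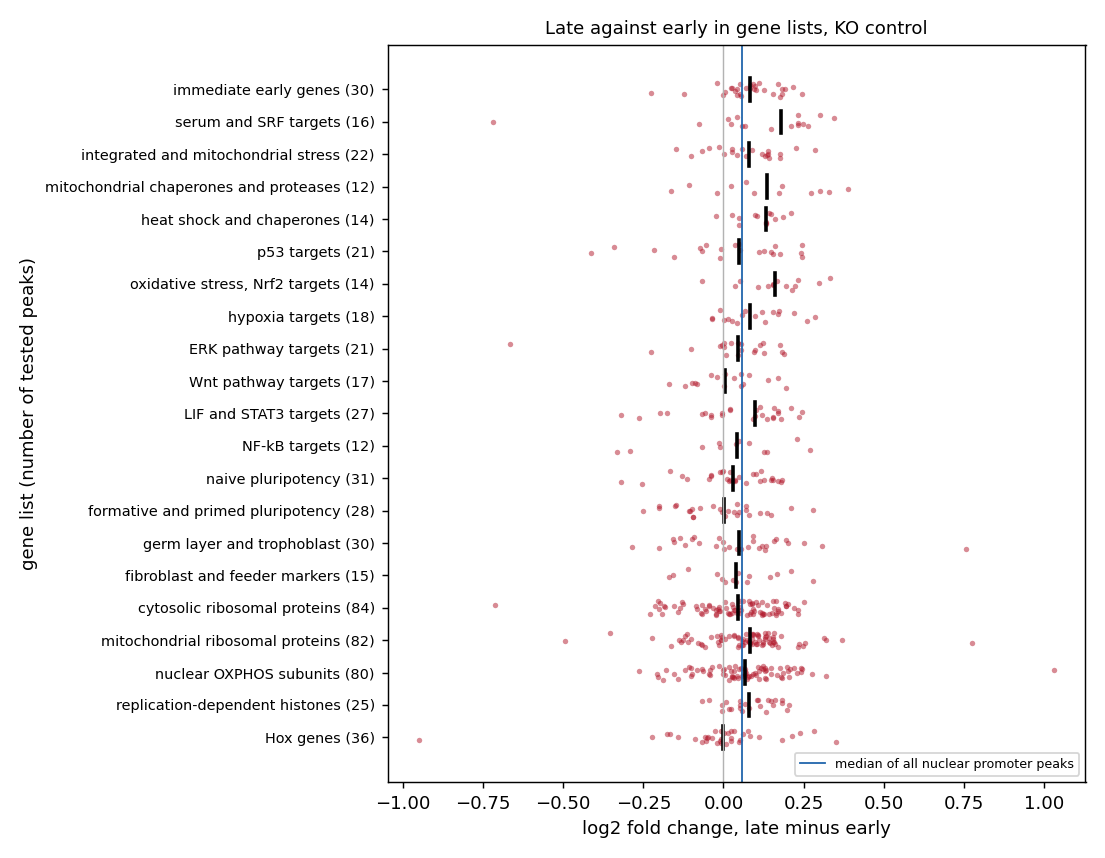
Log2 fold change, late minus early, of every tested promoter peak (points, spread vertically to be seen) of 21 gene lists, with each list's median as a black bar. Every median lies between -0.002 and 0.18, around the median of 0.06 of all nuclear promoter peaks (blue line), and no peak was called.

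The peaks with the smallest p over the whole table were next described, called or not. Among promoters that were higher late, the peak labelled as the Extl3 promoter (chr14:65149402-65150441) had 30.3, 30.9 and 26.9 CPM early and 49.2, 43.5 and 35.3 CPM late. Extl3 codes for a glycosyltransferase of heparan sulfate synthesis. The groups did not overlap, and the log2 change was 0.52 ± 0.13 (SE; edgeR adjusted p = 0.9997). Kcnj11, a potassium channel subunit, had a weak promoter peak of 1.34, 1.10 and 1.70 CPM early and 2.65, 3.20 and 3.797 CPM late (chr7:46098707-46099099; 1.19 ± 0.32). Lss, lanosterol synthase of the cholesterol pathway, had 29.2, 32.8 and 26.6 CPM early and 46.3, 40.6 and 35.4 CPM late (chr10:76530978-76532086; 0.46 ± 0.13). Its sequence is printed above with that of Qdpr, which recycles tetrahydrobiopterin. Qdpr had 45.1, 50.8 and 42.7 CPM early and 76.0, 61.0 and 54.3 CPM late (chr5:45449525-45450793; 0.45 ± 0.13). Rpgr, a ciliary gene of the X chromosome, and Grid2ip, which codes for a partner of a glutamate receptor, changed by 0.54 ± 0.16 and 0.70 ± 0.21. At all 6 the late libraries lay above the early ones, which picking by the smallest p largely fixes. Of all nuclear promoter peaks 6.29% did so. At Extl3, Lss, Rpgr and Qdpr 90 min was highest and 150 min the lowest of the late ones.

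Among promoters that were lower late, the peak labelled for Klf3, a transcriptional repressor, had 7.21, 7.92 and 6.55 CPM early and 3.92, 3.75 and 5.35 CPM late (chr5:64821128-64822174). It did not overlap, at -0.71 ± 0.20 (SE; edgeR adjusted p = 0.9997), and 150 min was again nearest to the early values. Mir144, a microRNA gene of the red cell lineage, had 10.4, 10.1 and 10.3 CPM early and 6.45, 7.95 and 6.81 CPM late (chr11:78071796-78072987; -0.55 ± 0.16). Camkk2, a kinase that activates AMPK, had 8.81, 9.58 and 9.56 CPM early and 6.70, 6.74 and 6.23 CPM late (chr5:122763535-122764540; -0.52 ± 0.17). The remaining 3 were 1700123J17Rik (-0.69 ± 0.19), Itgal, an integrin of white blood cells (-0.89 ± 0.29), and the nucleoside transporter Slc29a3 (-0.56 ± 0.16), whose groups overlapped. These 6 lower promoters were weak, at under 15 CPM in each library.

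**Figure D4:**
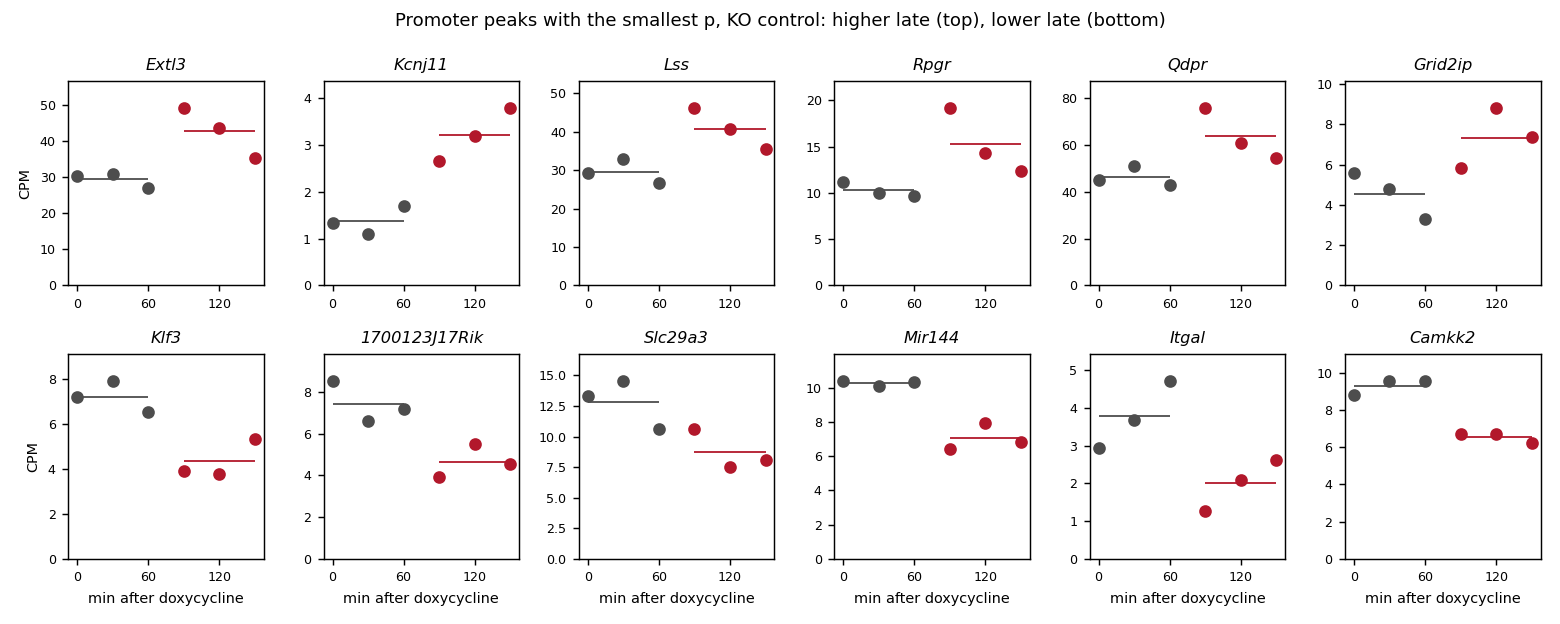
CPM against min after doxycycline for the 6 promoter peaks with the smallest p in each direction, named by the gene of the deposited promoter label, with early libraries in grey, late libraries in red and group means as lines. Late and early do not overlap at 11 of the 12 peaks (Slc29a3 overlaps), and no adjusted p was below 0.9997. The peaks were picked by the p of this same comparison, so the lack of overlap largely follows from the selection.

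Outside promoters, the smallest p belonged to a peak in intron 2 of 105 of Ubr4, which codes for a ubiquitin ligase (chr4:139390226-139390879). It had 3.87, 3.87 and 3.14 CPM early and 1.26, 1.10 and 2.04 CPM late, without overlap (-1.26 ± 0.31, SE; edgeR adjusted p = 0.9997). An intergenic peak nearest to Epop, an accessory protein of Polycomb repressive complexes, had 10.02, 9.58 and 10.1 CPM early and 6.82, 5.96 and 6.23 CPM late (chr11:97625538-97626015; -0.66 ± 0.17). The other lower peaks lay nearest to Dupd1 (-0.89 ± 0.22), Gm26274 (-1.21 ± 0.30), Gm13197 (-1.05 ± 0.26) and Gm7417 (-1.54 ± 0.39). The peak that lay higher with the smallest p was intergenic and nearest to Gm28514, with 7.88, 9.94 and 9.56 CPM early and 15.04, 14.2 and 12.1 CPM late (0.59 ± 0.15). A peak 360 bp from the start of Bex2, an X-linked gene, had 9.35, 11.05 and 8.38 CPM early and 15.7, 14.1 and 12.7 CPM late (0.56 ± 0.15). The others lay nearest to Uchl5 (1.31 ± 0.35), Gm43852 (0.49 ± 0.13), Llph (0.54 ± 0.15) and Diaph1 (0.61 ± 0.17). At all 12 of these peaks the late libraries lay on 1 side of the early ones. Picking by the smallest p of the same comparison largely fixes this, so it is no result about them. It was so for 4.0% of peaks without a promoter label upward and 4.77% downward, and for 4.32% and 4.51% of all tested peaks.

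The count of calls turned on 1 library. Without the 150 min library the same test called 369 of 119787 peaks, 299 higher (0.25%) and 70 lower (0.0584%) in the 90 and 120 min libraries. Of the 299, 188 (62.9%) carry the promoter label, which is 1.14% of the 16430 nuclear promoter peaks tested. The median over the 299 was 35.7, 41.3 and 35.2 CPM at 0, 30 and 60 min, 53.8 and 49.9 CPM at 90 and 120 min, and 37.0 CPM in the omitted library. At 150 min the level lay within the range of the early libraries in 199 of the 299, above it in 65 and below it in 35. For the 70 lower peaks the medians were 5.47, 4.70 and 5.17 CPM early, 2.27 and 2.32 CPM at 90 and 120 min, and 4.53 CPM at 150 min, and 14 of the 70 lie on unplaced contigs. These calls rest on 2 late libraries that were also the lowest in mitochondrial share and the highest in nuclear promoter share, and the part of those measures in the calls was not tested.

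Named after their values were seen, the called promoters with the smallest p included Zbtb5, a zinc finger gene, with 60.8, 85.8 and 56.3 CPM early, 102 and 94.2 CPM at 90 and 120 min and 69.4 CPM at 150 min. Its log2 change without 150 min was 0.55 ± 0.11 (SE; edgeR adjusted p = 0.00352). Pdia4, a disulfide isomerase of the endoplasmic reticulum, had 49.1, 54.0 and 50.6 CPM early, 75.3 and 72.5 CPM at 90 and 120 min and 46.8 CPM at 150 min (0.52 ± 0.11; edgeR adjusted p = 0.00766). Its 150 min level was below all early ones. An intronic peak nearest to Llph, a nucleolar protein gene, had 25.0, 25.6 and 23.7 CPM early, 46.6 and 37.3 CPM at 90 and 120 min and 26.0 CPM at 150 min (0.74 ± 0.12; edgeR adjusted p = 3.6e-05). Of the gene lists, 1 peak of SRF targets (Myh9) and 1 of mitochondrial ribosomal proteins (Mrps28) were among the 299, and 0 of the other lists, against 1.14% of all nuclear promoter peaks. Lists this short would hold few calls at that share, so the counts of 0 show nothing particular to them.

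Libraries of other lines were not used to pick these peaks. In the WT control the 299 peaks had a median log2 change, late minus early, of 0.08 (on CPM + 0.5), positive in 256, and in the KO Firre line of 0.21, positive in 288. The corresponding value in the knockout control with all 6 libraries was 0.34. Their median level ran 28.9, 30.0 and 33.2 CPM early and 31.0, 34.0 and 33.0 CPM late in the WT control. It ran 32.7, 39.4 and 38.9 CPM early and 45.4, 41.4 and 42.0 CPM late in the KO Firre line. The 70 lower peaks had median changes of -0.04 in the WT control, negative in 39, and -0.22 in the KO Firre line, negative in 57. No share over all peaks of these lines was counted to set beside these numbers. Of the 299, 188 carry the promoter label. The promoter share of nuclear counts differed, late minus early, by 0.42 points in the WT control (exact permutation p = 0.4). In the KO Firre line it differed by 1.05 points (exact permutation p = 0.2). Whether the 299 moved more than other promoters there was not tested. The KO Firre line had its lowest promoter share of nuclear counts at 0 min and its highest at 90 min, as the knockout control had its highest at 90 min.

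**Figure D5:**
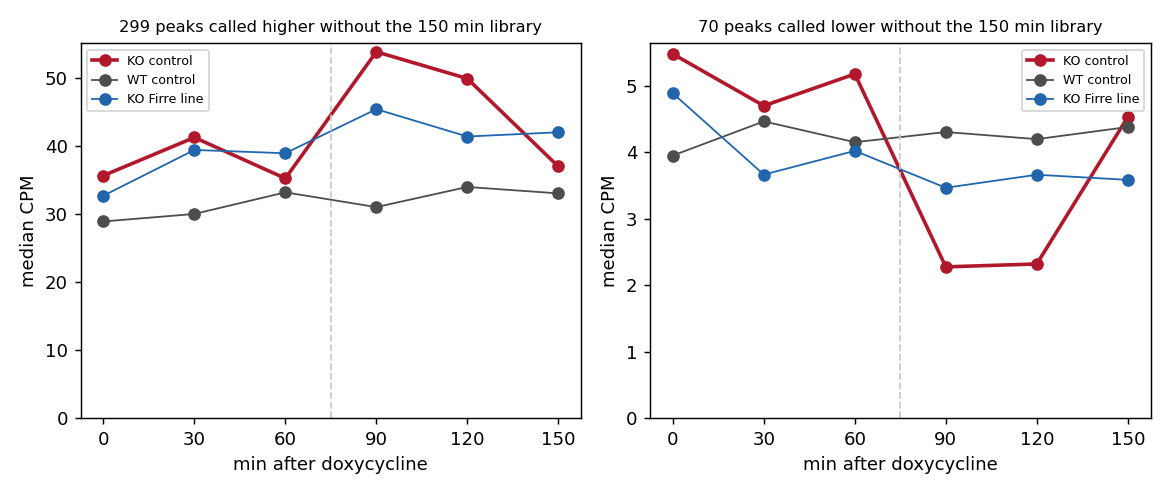
Median CPM of the 299 peaks called higher and the 70 called lower when the 150 min library is left out, against min after doxycycline, in the knockout control, the wild type control and the knockout Firre line. The peaks were picked by the difference of the 90 and 120 min libraries from the early ones, so in the knockout control these stand apart by selection. The median of the omitted 150 min library lies near those of the early ones.

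Whether the late minus early change differed from that of other lines was tested directly. Against the WT control 0 of 128432 peaks (0.0%) had a different change by edgeR at an adjusted p of 0.05, with 4463 (3.47%) at an unadjusted p under 0.05. DESeq2 called 0 and limma-voom 2, which were the mitochondrial intervals of mt-Ti and mt-Nd6. In limma-voom their late minus early change was lower in the knockout control by -0.33 ± 0.06 (SE; limma adjusted p = 0.0194) and -0.33 ± 0.06 (0.023). The edgeR SEs of the same differences were 0.42 and 0.40. Against the KO Firre line 0 of 127233 peaks (0.0%) were called, with 4358 (3.43%) at an unadjusted p under 0.05, and DESeq2 and limma-voom called 0. The smallest p against the WT control belonged to the same Ubr4 peak, where the control went from 2.94 ± 0.59 to 3.74 ± 0.59 CPM and the knockout control from 3.63 ± 0.42 to 1.47 ± 0.50 CPM (SD, n = 3 each). The difference was -1.60 ± 0.39 (SE; edgeR adjusted p = 0.9999). Next to it downward came peaks nearest to Gm26315 (-2.04 ± 0.51) and Gm32222, whose late mean of 0.251 CPM is under the limit of 3 counts a library, and upward Cyren (2.12 ± 0.54), 9430087B13Rik (1.31 ± 0.34) and Mir7220 (0.93 ± 0.24).

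Against the KO Firre line the smallest p was at an intronic peak nearest to 4930405A21Rik. It went from 4.43 ± 0.83 to 6.49 ± 0.99 CPM in the knockout control and from 7.46 ± 1.39 to 4.19 ± 0.93 CPM in the KO Firre line (difference 1.35 ± 0.28, SE; edgeR adjusted p = 0.9897). The other peaks named upward were nearest to Gm13856 (1.72 ± 0.41) and Amigo1, a neuronal adhesion gene (0.83 ± 0.21). Downward they were Fsd2 (-1.47 ± 0.37), Card10 (-0.88 ± 0.23) and Lamc3, a laminin subunit (-0.80 ± 0.22). At all 12 peaks named for these differences the means of the 2 lines lay in opposite directions, which is how the smallest p selects them, and 0 passed the test.

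On simulated counts with the same means and totals, the late against early test on 118420 peaks recovered 16.4% of peaks changed 1.5-fold, 73.1% of those changed 2-fold and all 66 changed 4-fold. For the difference against the WT control (128432 peaks) these shares were 5.97%, 53.7% and 95.5%, and against the KO Firre line (127233 peaks) 8.96%, 31.3% and 90.9%. The changed peaks were picked among better covered peaks, and the simulation held no shift shared by many peaks of a library. The shares therefore do not describe weak peaks, or libraries that differ as broadly as these did.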

How the data were processed

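Peaks and counts are the authors'. The deposited table holds raw, unscaled counts for each library in each consensus peak, and the deposited annotation gives each peak's position (mm10), class and other values such as the distance in bp to the nearest start. Per the submitters' processing notes, MACS2 2.2.7.1 and featureCounts were used. For the aligner, duplicate removal and transposase shift: not given in the sources used here. Of 24 labelled libraries 23 were analysed.

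Counts were tested with edgeR 4.0.16 (TMM, filterByExpr with a minimum of 10 counts, robust quasi-likelihood fit, Benjamini-Hochberg over all tested peaks, threshold 0.05) on the 6 knockout control libraries (4 residual degrees of freedom). Differences between lines used 12 libraries (8 degrees). Alternatives used DESeq2 1.42.0 and limma 3.58.1. Totals and shares were compared by exact two-sided permutation tests. Totals in peaks ran from 5725518 to 10204641; 0 counts allow up to 0.292 to 0.552 CPM (a floor of 3 counts). Both these limits and the binomial intervals describe counting error alone, because the reads have no molecular identifiers.

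A list's promoter peaks carry the gene's promoter label, lie within 1000 bp of its start or overlap its RefSeq promoter window. The peaks named were, for late against early, the 6 promoter and 6 other peaks with the smallest p in each direction, 1 per nearest gene and none on unplaced contigs. For each difference they were the 3 with the smallest p in each direction, and for each list the peak with the smallest p in each direction. Other list members were picked as examples after their values were seen. The scripts were tested on simulated data, and the alternatives tried are given with their effect in the closing section. Nearest-gene names are the authors'; a promoter label often names another gene (35.1% of labelled peaks lie over 1000 bp from the nearest annotated start). The comparison, lists and members were chosen with earlier results of these data known.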

Additional observations from a re-analysis of the deposited data

How the results depend on the processing

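The count of 0 calls for late against early remained 0 under DESeq2, limma-voom, edgeR's legacy mode, total count scaling, loess offsets, both other filters, the promoter share as covariate, all 23 libraries in 1 fit, the slope per hour, 30 to 150 against 0 min, 120 and 150 against 0 and 30 min, and without 30 and 90 min. Leaving out 1 library gave 0 to 369 calls, all 369 without 150 min. With the nuclear promoter share as covariate, chosen after seeing the data, there were 108 calls (65 higher, 19 of them on unplaced contigs, and 43 lower), of which 8 were shared with the 369. Without the mitochondrial intervals, also chosen after seeing the data, there were 0. The median promoter change moved from 0.06 to 0.10 without 150 min and to 0.04 without 90 min, to 0.02 with loess offsets and to -0.01 with the nuclear promoter share as covariate, where its sign turned. That covariate is itself a promoter measure of the same counts. The difference against the WT control had 2 calls with limma-voom and, leaving out 1 library, 0 to 1 (lower, on an unplaced contig, without 150 min). Against the KO Firre line every alternative run gave 0. The total kept its direction, from 0.30 (without 30 min) to 0.51 leaving out 1 library. So did the promoter share, from 0.235 to 1.20 points leaving out 1 library (1.20 without 30 min, 0.914 without 150 min, 0.235 without 0 min), 0.932 without 30 and 90 min and 1.02 without the top 1% of peaks. Of 1362 alternative values of 65 named peaks, 1329 kept direction and call, 17 became calls (12 without 150 min, 5 with the nuclear promoter share) and 16, at 11 uncalled peaks, changed sign. The sign changed for Fosl1 (0.159 with the nuclear share, 0.0166 as slope, 0.0446 at 120 and 150 against 0 and 30 min), Bag3 (-0.1159 to 0.031 leaving out 1 library, above 0 without 120 and, at 0.026, without 150 min, and 0.0566 against 0 min) and Adm (0.0005 and 0.0319 with the promoter and nuclear share). It also did for Ppp1r15a (0.0146) and Thy1 (-0.274) against 0 min, Utf1 (-0.2639 to 0.0087) and H3c6 (-0.1921 to 0.1123) leaving out 1 library, above 0 without 150 min, the Spg7 peak (0.0092) without 30 and 90 min, Tcf7 (0.0668) with the nuclear share, Stat3 (0.0229) at 120 and 150 against 0 and 30 min and Slc7a11 (-0.1104 to 0.0165 leaving out 1 library, above 0 without 120 min). The cause was not tested. Early and late libraries of 1 line cannot be paired. Between lines, the time of sampling as a block, chosen after seeing the data, gave 0 calls against the WT control (4197 peaks at an unadjusted p under 0.05) and 0 against the KO Firre line (5120; smallest edgeR adjusted p 0.125). Same-time libraries did not all deviate together: their correlations, across peaks, ran from -0.162 to 0.061 with the WT control and from -0.042 to 0.147 with the KO Firre line. Of 6 pairs each, 0 and 3 were over 0.1, and 2 and 3 knockout control libraries correlated best with their own time.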
